A study of Mus musculus with 5 samples.

Results

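The 44 genes described here encode the Wnt ligands (Wnt, 19 genes), the Frizzled receptors (Fzd, 10 genes), the R-spondins (Rspo, 4 genes), the Lgr receptors that bind them (Lgr4 to Lgr6, 3 genes), the secreted Frizzled-related proteins (Sfrp, 4 genes) and the Dickkopf proteins (Dkk, 4 genes). They were taken by gene symbol from 23997 gene names in a table of RNA-seq values of embryonic mouse cortex, and each symbol matched a RefSeq gene. The rule used symbols and no measured value. The RNA came from whole cerebral cortices of C57BL/6 embryos at E16, in 2 conditional knockout libraries (cKO, Emx1Cre/+ Uhrf1-/-) and 3 control libraries (Emx1Cre/+ Uhrf1+/-). Both groups carried Emx1-Cre, so the control cortices were heterozygous for Uhrf1 and not wild type. Emx1-Cre removes the floxed exon 4 of Uhrf1 in the dorsal telencephalon only, so vessels, microglia, meninges and immigrant interneurons in the same tissue kept the gene. Values are FPKM, fragments scaled to transcript length and to the mapped fragments of a library, so that levels of different genes can be set side by side.

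Wnt proteins are lipid-modified secreted signals that bind Frizzled receptors together with Lrp5 or Lrp6, which stops the breakdown of beta-catenin and lets it act with TCF/LEF factors on target genes. R-spondins bound to Lgr receptors keep more Frizzled on the cell surface, while Sfrp proteins bind Wnts outside the cell and Dkk1, Dkk2 and Dkk4 block the Lrp co-receptors. In the embryonic cortex the pathway is known for its part in progenitor proliferation, in the patterning of the dorsal midline and in the growth of axons and vessels. Uhrf1 recruits Dnmt1 to hemimethylated CpG sites and is needed to keep CpG methylation through cell division.

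The libraries differed in depth, roughly 7600000 and 9700000 fragments in cKO and 36000000, 16000000 and 10000000 in control, as estimated from the steps between low FPKM values. Uhrf1 itself stood at 2.75 and 2.61 FPKM in cKO, against 7.24, 13.2 and 13.0 FPKM in control, which is -1.97 ± 0.28 (SE) as a log2 fold change (limma adjusted p = 0.00753). The smallest p an exact permutation test of 2 against 3 libraries can give is 0.1, and Uhrf1 reached it. Without 1 of the cKO libraries its adjusted p was 0.274 or 0.311. The labelled tissue held its markers: the summed FPKM of 8 cortical neuron genes was 2868 to 3053 in cKO and 3030 to 3442 in control. That of 10 dorsal progenitor genes was 976 to 1171 in cKO and 1270 to 1867 in control. Markers of the cortical hem and of the choroid plexus, dorsal midline tissues rich in Wnts and Wnt inhibitors, were close to 0, with sums of 1.13 to 1.14 (hem, 6 genes outside the Wnt list) and 2.48 to 2.58 FPKM (choroid plexus, 8 genes) in cKO, against 1.09 to 1.40 and 2.62 to 3.27 FPKM in control. Msx2 among the hem genes was listed at 0 in all 5 libraries. In bulk tissue, a lower value from fewer cells of a type and one from less RNA per cell cannot be told apart.

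The comparison of cKO with control asked whether loss of Uhrf1 changed the transcript level of these ligands, receptors and modulators. Few of them passed the thresholds given below. Of the 44 members, 28 averaged 0.1 FPKM or more across the libraries and were tested, with limma, in a fit of 14691 genes. A single member, the receptor gene Fzd10, passed an unadjusted p under 0.05 together with a 2-fold difference, and it was lower in cKO. No member was higher by that rule. Over all genes tested 4.03% passed it, 2.87% higher and 1.16% lower in cKO, so 1 of 28 (3.57%) lay near the background. At a Benjamini-Hochberg adjusted p under 0.05, limma called 0 of 28 members, against 1.26% of all genes, and at an unadjusted p under 0.05 with no fold limit it gave 4 members (Dkk3, Fzd10, Sfrp2 and Wnt5a), 14.3% against 11.5% of all genes. The lowest adjusted p of any member was 0.0552, for Dkk3.

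The 2-fold line fell between the members with the largest differences. Fzd10 lay just beyond it, with a log2 fold change of -1.0004, and Dkk3 just short of it, at -0.997, so which of the pair was counted depended on small changes in the values. The cKO and control libraries did not overlap for 11 of the 28 tested members (39.3%), with both cKO libraries above all controls for 7 (Fzd7, Lgr6, Sfrp2, Wnt2b, Wnt3, Wnt5a and Wnt7b) and below them for 4 (Dkk3, Fzd10, Fzd5 and Rspo2). Over all genes tested the same was true of 30.8%, 14.5% above and 16.3% below. The median log2 fold change of the tested members was 0.10, with 17 higher and 11 lower means in cKO, beside -0.02 over all genes. The median size of the log2 fold change, in either direction, was 0.32 for members and 0.22 for all genes, and 0.21 against 0.20 among those with a mean of at least 1 FPKM. Values were tested on the log2(FPKM + 0.1) scale, which understates differences of genes with low levels.

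**Figure D1:**
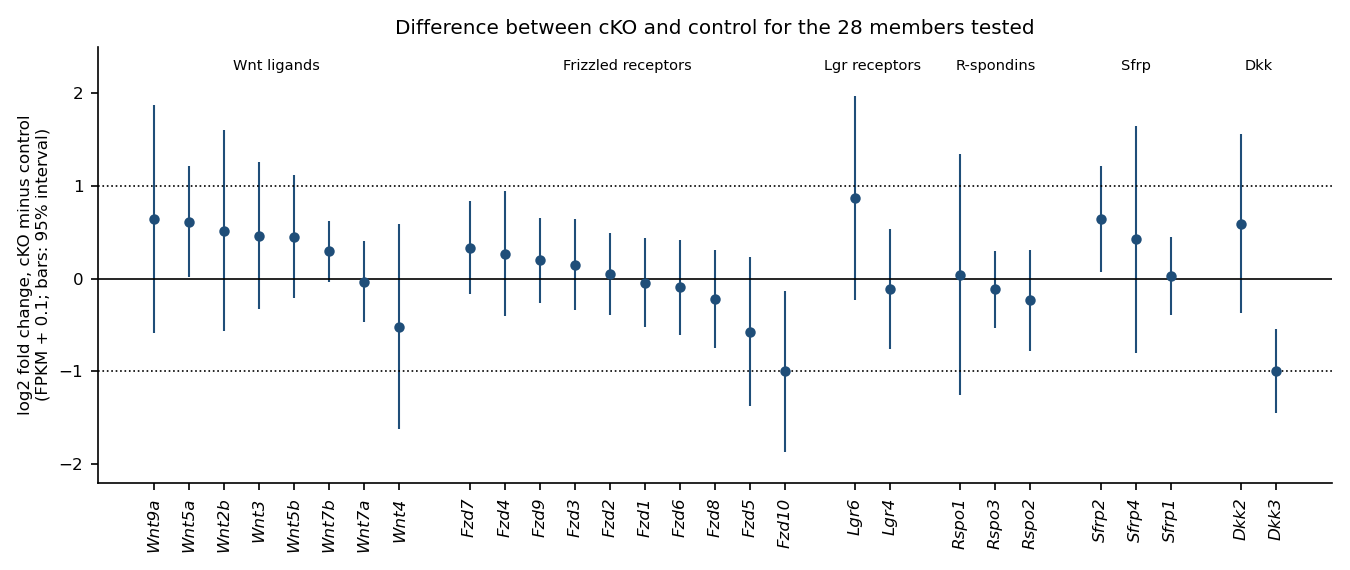
Log2 fold change in FPKM + 0.1, cKO minus control, on the vertical axis for each of the 28 tested members, grouped by family along the horizontal axis and ordered within it; bars are 95% intervals from the limma fit (2 cKO and 3 control libraries), and dotted lines mark 2-fold. Fzd10 (-1.0004) and Dkk3 (-0.997) sit on the lower line, the intervals of Sfrp2 and Wnt5a lie above 0, and those of the other 24 members include 0.

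The members covered a wide range of levels, with a mean of at least 1 FPKM for 18 of the 44 and at least 10 FPKM for 9. In order of mean level over the 5 libraries these 9 were Wnt7b, Fzd3, Sfrp1, Fzd8, Fzd1, Fzd2, Wnt7a, Rspo3 and Dkk3. They were followed by Sfrp2, Fzd9, Fzd7, Fzd6, Wnt5a, Rspo2, Wnt5b, Lgr4 and Fzd4. Neighbours in this order mostly overlapped, in 14 of 17 pairs. The ranges of the 5 libraries were apart only between Wnt7b and Fzd3, between Fzd3 and Sfrp1 and between Lgr4 and Fzd4. Each family but the Frizzled receptors was carried largely by 1 gene, which held most of the summed FPKM of its family in every library: Wnt7b 75.3% to 81.3%, Lgr4 89.98% to 94.8%, Rspo3 84.6% to 89.1%, Sfrp1 73.8% to 84.3% and Dkk3 90.5% to 98.3%. Fzd3 held 31.7% to 44.5% of the Frizzled sum.

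**Figure D2:**
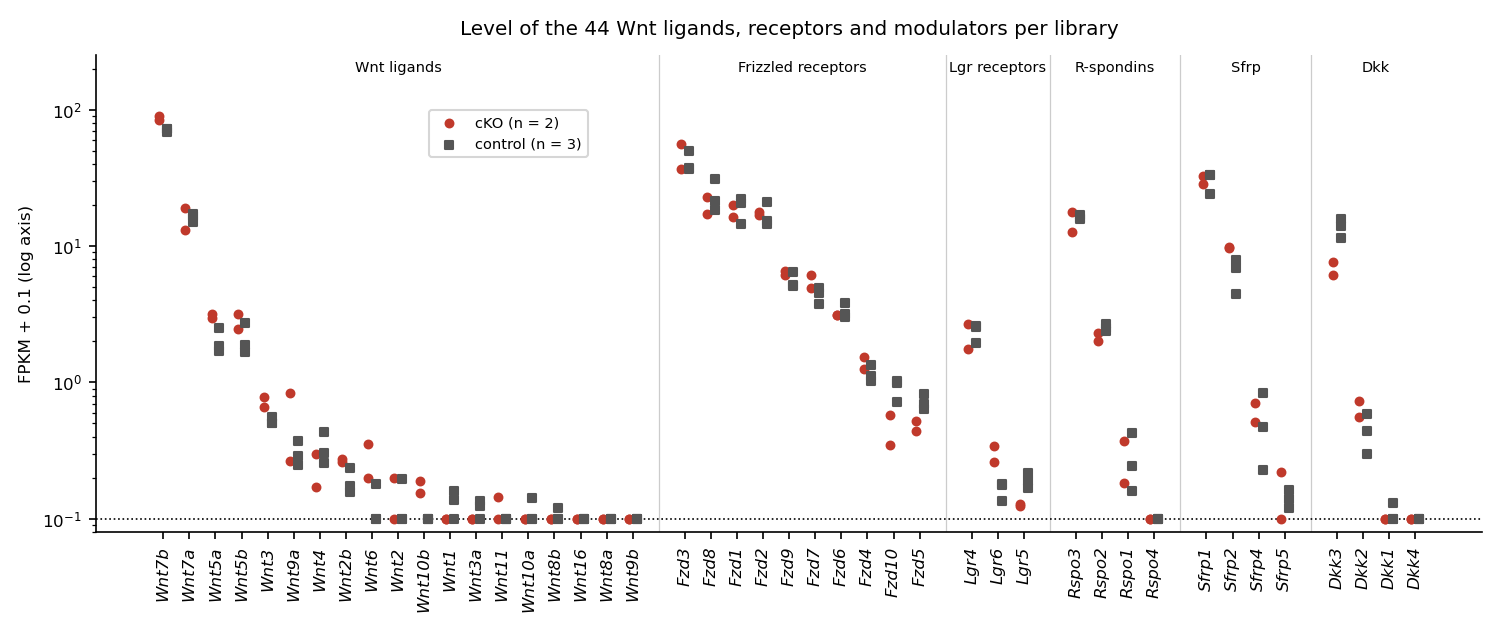
FPKM + 0.1 on a log axis for the 44 members in each library, by family and in order of mean level, with cKO libraries as red circles (n = 2) left of control libraries as grey squares (n = 3); the dotted line is a value of 0 FPKM. Wnt7b stands highest, all 10 Frizzled receptors lie above the dotted line, and 16 members, 11 of them Wnt ligands, lie at or near it.

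Wnt7b, a ligand made by cortical progenitors and neurons that is known for its action on brain vessels, was the most abundant member. It stood at 84.1 and 89.4 FPKM in cKO, against 68.8, 71.5 and 71.7 FPKM in control. Both cKO libraries lay above all controls and each group was tight, at 86.7 ± 3.8 in cKO (SD, n = 2) and 70.7 ± 1.6 in control (SD, n = 3). The log2 fold change of 0.30 ± 0.15 (SE) had a 95% interval of -0.03 to 0.62 and did not pass the test (limma unadjusted p = 0.072, adjusted p = 0.472). Its close relative Wnt7a stood at 19.0 and 13.1 FPKM in cKO, against 16.5, 17.1 and 14.9 FPKM in control. The cKO libraries of Wnt7a lay on either side of the controls, and the interval of its log2 fold change, -0.47 to 0.41, did not reach 2-fold in either direction.

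Wnt5a, a ligand best known for signalling without beta-catenin, had the lowest p of the 8 ligands tested. Its level was 3.05 and 2.87 FPKM in cKO, against 2.40, 1.61 and 1.76 FPKM in control. The groups did not overlap, with a log2 fold change of 0.62 ± 0.27 (SE; limma unadjusted p = 0.0445, adjusted p = 0.419). Its paralog Wnt5b, chosen after its values were seen, had 2.35 and 3.05 FPKM in cKO, against 2.61, 1.56 and 1.76 FPKM in control. Here control replicate 1 lay between the cKO libraries, and the log2 fold change was 0.45 ± 0.29 (SE; adjusted p = 0.578). The other ligands tested, Wnt2b, Wnt3, Wnt4 and Wnt9a, had means under 1 FPKM in both groups. Among these Wnt3, chosen after its values were seen, stood at 0.557 and 0.687 FPKM in cKO and at 0.407, 0.403 and 0.456 FPKM in control, without overlap but with an adjusted p of 0.636. Of the 8 tested ligands, 6 had higher means in cKO, and none passed the test with its 2-fold limit.

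The remaining 11 Wnt genes (Wnt1, Wnt2, Wnt3a, Wnt6, Wnt8a, Wnt8b, Wnt9b, Wnt10a, Wnt10b, Wnt11 and Wnt16) had means under 0.1 FPKM and were not tested. Together with Dkk1, Dkk4, Lgr5, Rspo4 and Sfrp5 they made up 16 untested members, whose highest single value was 0.255 FPKM. Of the 16, 5 were listed at 0 in every library: Dkk4, Rspo4, Wnt8a, Wnt9b and Wnt16. That is 11.4% of the 44 members, against 23.9% of all gene names other than small RNAs. A value of 0.132 FPKM in cKO replicate 1 and 0.0276 FPKM in control replicate 1 corresponded to about 1 fragment per kilobase, so single values below these levels rest on a few fragments at most. Of 18 members with a control mean under 0.1 FPKM, Lgr6 and Wnt6 had a cKO mean above 0.1 FPKM and more than 2-fold the control mean, 11.1% against 6.92% of all genes with so low a control mean. Wnt6 was listed at 0.0986 and 0.255 FPKM in cKO and at 0.0789, 0 and 0 FPKM in control, and only a fit with no limit on the mean could include it (limma unadjusted p = 0.0257, adjusted p = 0.390). Wnt10b, chosen after its values were seen, was listed at 0.0884 and 0.0539 FPKM in cKO and at 0 in the 3 control libraries.

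Several of the silent ligand genes lie beside others in the genome. In RefSeq coordinates of GRCm38.p6, Wnt1 and Wnt10b are 11.7 kb apart on chromosome 15, Wnt10a and Wnt6 are 6.7 kb apart on chromosome 1, and Wnt3a and Wnt9a are 16.1 kb apart on chromosome 11. The gene spans of Wnt3 and Wnt9b on chromosome 11 overlap by about 1.1 kb. In the first 2 of these pairs both genes were under a mean of 0.1 FPKM over the 5 libraries. In the other pairs 1 gene was measured and its neighbour was not: Wnt3 averaged 0.622 FPKM in cKO and 0.422 FPKM in control while Wnt9b was listed at 0 throughout, and Wnt9a averaged 0.446 FPKM in cKO and 0.203 FPKM in control while Wnt3a was listed at 0 in both cKO libraries and averaged 0.0201 FPKM in control. The cKO mean of Wnt9a came mostly from 1 library, with 0.730 and 0.163 FPKM in cKO, against 0.190, 0.147 and 0.270 FPKM in control.

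Frizzled receptors, which bind Wnts through an extracellular cysteine-rich domain, were all measured above the limit, and their summed level was 109.9 and 126.6 FPKM in cKO, against 108.0, 121.9 and 117.8 FPKM in control. Of the 10, 5 had higher and 5 lower means in cKO, with a median log2 fold change of 0.0026. Fzd3, known for axon guidance in the forebrain, was the most abundant receptor, at 36.4 and 56.3 FPKM in cKO and at 36.8, 49.2 and 37.4 FPKM in control. The 2 cKO libraries spanned the whole range of the controls, and the interval of the log2 fold change ran from -0.34 to 0.64. Fzd8 stood at 22.7 and 17.1 FPKM in cKO, against 18.4, 21.3 and 30.9 FPKM in control, an interval of -0.75 to 0.31. For Fzd1 the values were 16.3 and 20.0 FPKM in cKO and 21.95, 20.6 and 14.3 FPKM in control, an interval of -0.52 to 0.44. The groups overlapped for both genes, and none of these 3 intervals reached 2-fold in either direction.

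Fzd10 was the only receptor past the thresholds and one of the least abundant. It was listed at 0.480 and 0.248 FPKM in cKO, against 0.613, 0.894 and 0.925 FPKM in control. The groups did not overlap, and the means were 0.364 ± 0.164 FPKM in cKO (SD, n = 2) and 0.811 ± 0.172 FPKM in control (SD, n = 3). The log2 fold change was -1.0004 ± 0.39 (SE; limma unadjusted p = 0.0289, adjusted p = 0.379). Leaving out 1 library at a time gave log2 fold changes of -1.37 to -0.63, and the gene missed the thresholds without control replicate 2 (-0.93), control replicate 3 (-0.91) or cKO replicate 2 (-0.63). Fzd5, another receptor of low level chosen after its values were seen, was also lower in both cKO libraries, at 0.339 and 0.425 FPKM in cKO and 0.543, 0.719 and 0.590 FPKM in control, without passing the test (unadjusted p = 0.142). Fzd7, likewise chosen after its values were seen, lay the other way, at 6.02 and 4.85 FPKM in cKO and 4.39, 4.84 and 3.63 FPKM in control, where cKO replicate 2 and control replicate 2 all but met.

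Promoter windows from RefSeq (GRCm38.p6, 250 bases before to 50 after a gene start) were held for 29 of the 44 members, as 32 windows. CpG-rich windows, with an observed to expected CpG ratio above 0.6 and a GC content above 50%, made up 78.1% of them, against 33.3% of all 32851 windows and 44.9% of those of protein-coding genes. The share was 84.2% of 19 windows for members that were tested and 69.2% of 13 windows for those that were not, so few windows lie behind each. No window was held for Dkk3, Wnt7b or Fzd3. The letters CTTTGAA or CTTTGAT, a TCF/LEF motif searched on both strands, occurred in 3 of the 32 member windows (9.38%; Dkk1, Wnt11 and Wnt5b) and in 8.65% of all windows. Since Uhrf1 acts at CpG sites, the 250 bases upstream of the start are shown with CG in capitals for 3 genes chosen after their values were seen: Fzd10, the member past the thresholds (chr5:128600856-128601105, plus strand), and the neighbours Wnt3 (chr11:103773925-103774174, plus strand) and Wnt9b (chr11:103749822-103750071, minus strand), one of them measured and one listed at 0 in all libraries. The RefSeq start used for Wnt9b lies about 25.5 kb inside the gene span given above.
Fzd10: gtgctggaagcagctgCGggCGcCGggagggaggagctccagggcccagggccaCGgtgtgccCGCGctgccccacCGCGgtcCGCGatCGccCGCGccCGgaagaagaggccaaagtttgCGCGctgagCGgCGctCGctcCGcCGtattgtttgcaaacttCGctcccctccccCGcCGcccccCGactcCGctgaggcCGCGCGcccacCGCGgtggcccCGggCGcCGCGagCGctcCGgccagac
Wnt3: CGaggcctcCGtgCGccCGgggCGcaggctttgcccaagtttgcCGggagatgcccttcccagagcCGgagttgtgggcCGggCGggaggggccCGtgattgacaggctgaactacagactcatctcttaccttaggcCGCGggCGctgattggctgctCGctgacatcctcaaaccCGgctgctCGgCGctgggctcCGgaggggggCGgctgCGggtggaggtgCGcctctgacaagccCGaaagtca
Wnt9b: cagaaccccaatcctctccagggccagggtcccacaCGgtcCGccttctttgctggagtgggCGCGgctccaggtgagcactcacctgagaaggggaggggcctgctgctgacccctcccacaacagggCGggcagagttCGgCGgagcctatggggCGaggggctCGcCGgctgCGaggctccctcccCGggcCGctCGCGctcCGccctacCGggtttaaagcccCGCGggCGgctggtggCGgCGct
The Fzd10 stretch held 37 CG pairs, and those of Wnt3 and Wnt9b held 22 each. Methylation was not measured in these libraries.

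No R-spondin and neither tested Lgr receptor passed the test. Rspo3, an R-spondin known for its part in vessel growth, stood at 12.5 and 17.7 FPKM in cKO, against 15.9998, 15.8 and 16.7 FPKM in control. The cKO libraries lay on either side of the tight controls, and the interval of the log2 fold change was -0.54 to 0.30. Rspo2 was lower in both cKO libraries, at 2.20 and 1.90 FPKM, against 2.29, 2.58 and 2.41 FPKM in control, and the difference on the log2 scale was -0.23 ± 0.24 (SE; adjusted p = 0.731). Rspo1 was listed at 0.0831 and 0.272 FPKM in cKO and at 0.324, 0.143 and 0.0585 FPKM in control, with full overlap and an interval of -1.26 to 1.34, too wide to place it. Of the receptors, Lgr4 stood at 2.58 and 1.65 FPKM in cKO and at 2.46, 2.47 and 1.85 FPKM in control, with overlapping groups. Lgr6 was listed at 0.239 and 0.160 FPKM in cKO, against 0.0775, 0.0803 and 0.0340 FPKM in control. Its groups did not overlap, and at these low levels the log2 fold change of 0.87 ± 0.49 (SE) had an unadjusted p of 0.108. Lgr5, a stem cell marker of other tissues, was listed at 0.0274 and 0.0237 FPKM in cKO and at 0.117, 0.0891 and 0.0683 FPKM in control and was not tested.

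Among the secreted Frizzled-related proteins, Sfrp1 was the most abundant and Sfrp2 had the lowest p. Sfrp2 stood at 9.52 and 9.81 FPKM in cKO, against 4.35, 6.82 and 7.78 FPKM in control. The cKO libraries were nearly equal and lay above all controls, which were themselves spread. The log2 fold change was 0.65 ± 0.25 (SE; limma unadjusted p = 0.0307, adjusted p = 0.384), and it ranged from 0.40 without control replicate 1, the lowest of all, to 0.81 without control replicate 3. Sfrp1, a gene of cortical progenitors, had 28.5 and 32.4 FPKM in cKO and 24.1, 33.0 and 33.0 FPKM in control, an interval of -0.39 to 0.45. Sfrp4 was listed at 0.605 and 0.413 FPKM in cKO and at 0.129, 0.371 and 0.733 FPKM in control, with the controls spanning both cKO values.

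Sfrp2 and Wnt5a were higher in the same libraries as several markers of cells outside the Emx1 lineage. Of 9 tested genes of meninges and fibroblasts, 8 had higher means in cKO and 3 passed the thresholds (Crabp2, Col1a1 and Lum). The summed level was 15.9 to 16.9 FPKM in cKO and 4.64 to 6.71 FPKM in control, but the 2 cKO sums rested partly on different genes. Dcn stood at 6.90 and 0.997 FPKM in cKO, against 0.906 to 1.66 FPKM in control. Col1a1 stood at 0.663 and 3.19 FPKM in cKO, against 0.203 to 0.816 FPKM in control. Crabp2 was higher in both cKO libraries, at 4.22 and 5.29 FPKM, against 0.629, 0.0721 and 0.757 FPKM in control. None of the 10 listed genes was at 0 in all libraries, but Aldh1a2 was listed at 0 in cKO replicate 1 and control replicate 3. Of 10 genes of the ventral telencephalon and its interneurons, 9 had higher means in cKO and 1 (Gsx2) passed the thresholds. The sum was 104.2 to 178 FPKM in cKO and 92.8 to 103.6 FPKM in control. The higher cKO sum was that of replicate 1, where Sst stood at 78.2 FPKM. Sst was at 25.5 FPKM in cKO replicate 2 and at 23.2, 27.0 and 38.6 FPKM in control. Of 7 microglia genes, 4 had higher means in cKO, none passed the thresholds and none was at 0 in all libraries. Aif1, P2ry12 and Tmem119 had lower means in cKO. The sum was 35.1 to 35.6 FPKM in cKO and 20.6 to 33.8 FPKM in control, and was mostly C1qa and C1qb. Of 9 vessel genes, 7 had higher means in cKO and none passed the thresholds. Their sums overlapped between groups, at 129 to 130 FPKM in cKO and 111 to 151 FPKM in control, and were mostly Cldn5 and Rgs5. The part of any of these cells in the values of Sfrp2 and Wnt5a was not tested.

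Dkk3, a divergent member of the Dickkopf family, had the lowest p of all members tested. It stood at 7.54 and 6.00 FPKM in cKO, against 15.6, 13.9 and 11.4 FPKM in control. The groups were well apart, the highest cKO library lying below the lowest control, and the means were 6.77 ± 1.09 FPKM in cKO (SD, n = 2) and 13.6 ± 2.1 FPKM in control (SD, n = 3). The log2 fold change was -0.997 ± 0.20 (SE), with a 95% interval of -1.45 to -0.54 (limma unadjusted p = 0.00075, adjusted p = 0.0552). Without control replicate 3 the adjusted p was 0.0495, and it was 0.189 to 0.429 without any other single library, highest without cKO replicate 2. Dkk2 was listed at 0.460 and 0.629 FPKM in cKO and at 0.486, 0.336 and 0.197 FPKM in control, with overlap and an adjusted p of 0.615. Dkk1, the best known inhibitor of the family, and Dkk4 were at or near 0 throughout.

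Dkk3 and Fzd10 were lower in the cKO libraries, as were the summed markers of dorsal progenitors and of Cajal-Retzius cells. The latter are the reelin-making neurons of the marginal zone. Of 10 dorsal progenitor genes, 8 had lower means in cKO, none passed the thresholds, and none was at 0. Pax6, Emx1, Nes, Eomes and Neurog2 had an unadjusted limma p under 0.05, as did 11.5% of all genes. Each of these had both cKO libraries below all controls, and the lowest adjusted p was 0.117, for Eomes. Most of the progenitor sum was Fabp7. Sox2 and Slc1a3 had higher means, and Hes5 in cKO replicate 1 (27.5 FPKM) lay above all controls. Of 6 Cajal-Retzius genes, 5 had lower means and none passed, with sums of 81.1 to 89.9 FPKM in cKO and 98.0 to 128 FPKM in control. Most of these sums was Reln, and Lhx1 had a higher mean. Lower sums in cKO were also found for blood and thalamus genes, but each rested mostly on 1 gene. Sums of blood genes were 331 to 333 FPKM in cKO and 460 to 617 FPKM in control. Most of this was Hbb-bs, at 273 and 311 FPKM in cKO, against 451, 434 and 592 FPKM in control. Of the 5 blood genes tested, 3 had higher means in cKO. Among them Hba-a1 passed the thresholds, higher, with 34.5 FPKM in cKO replicate 1 and 1.29 FPKM in cKO replicate 2. For thalamus genes the sums were 62.6 to 73.8 FPKM in cKO and 92.3 to 103 FPKM in control. Lhx2 made up most of them, at 49.3 and 42.1 FPKM in cKO, against 71.0, 78.4 and 73.2 FPKM in control. Of the 5 thalamus genes tested, 3 had higher means in cKO. The part of any of these cells in the values of Dkk3 and Fzd10 was not tested.

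**Figure D3:**
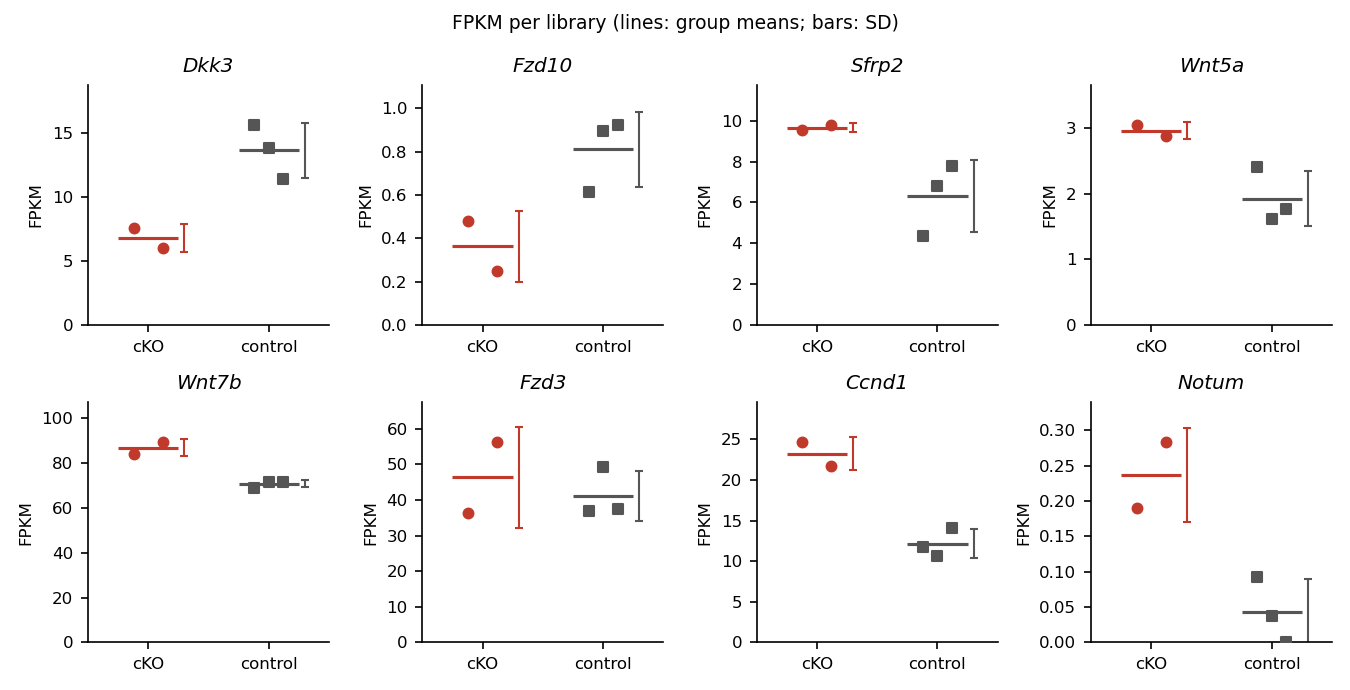
FPKM on a linear axis from 0 for 6 members and for Ccnd1 and Notum in each library, with cKO (red circles, n = 2) left of control (grey squares, n = 3), horizontal lines for group means and bars for the SD. The groups are apart for all of these genes but Fzd3, whose cKO libraries (36.4 and 56.3 FPKM) enclose the controls.

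The other genes of the pathway were described from a list of 83, of which 71 had a mean of at least 0.1 FPKM. Of these, 1 passed the thresholds, Notum, higher in cKO, and none passed lower, beside the 4.03% of all genes. At an adjusted p under 0.05 limma called 1 of the 71 (1.41%, against 1.26% of all genes), and at an unadjusted p under 0.05 it gave 10 (14.1%, against 11.5%), shares near the background. Higher means in cKO were found for 53 and lower means for 18, with a median log2 fold change of 0.17 against -0.02 over all genes. Both cKO libraries lay above all controls for 18 of the 71 (25.4%, against 14.5% of all genes) and below them for 2 (2.82%, against 16.3%). The medians of the 7 classes lay between 0.04 for the destruction complex and cytoplasmic transducers and 0.24 for the core genes of planar cell polarity, where 10 of 11 means were higher.

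Notum encodes an enzyme that removes the lipid from Wnts and so inactivates them. It was listed at 0.190 and 0.284 FPKM in cKO and at 0.0928, 0.0373 and 0 FPKM in control. The groups did not overlap, but the level was close to the limit of measurement in every library, and the log2 fold change of 1.27 ± 0.53 (SE) had an adjusted p of 0.403. Without control replicate 2, control replicate 3 or cKO replicate 2 it missed the thresholds, with log2 fold changes of 1.26, 1.03 and 1.07, as it did with a pseudocount of 0.01 (2.73, unadjusted p = 0.056) and with a covariate for Y-linked transcripts (1.24, unadjusted p = 0.0581). Ccnd1, the gene of cyclin D1 and a target of beta-catenin as well as of other signals, was the 1 gene of the list at an adjusted p under 0.05 and was chosen after its values were seen. It stood at 24.7 and 21.8 FPKM in cKO, against 11.7, 10.7 and 14.1 FPKM in control. The log2 fold change was 0.94 ± 0.18 (SE; limma adjusted p = 0.0414), and the adjusted p was 0.0287 without control replicate 3 but between 0.148 and 0.419 without any other single library, highest without cKO replicate 1. Apcdd1, a membrane-bound Wnt inhibitor also chosen after its values were seen, stood at 30.5 and 26.5 FPKM in cKO, against 20.5, 15.6 and 15.5 FPKM in control, without overlap and with an adjusted p of 0.129.

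Most of the abundant machinery showed no difference past the test. Ctnnb1, the gene of beta-catenin, stood at 428 and 439 FPKM in cKO, against 571, 559 and 533 FPKM in control. Both cKO libraries were below all controls, with a log2 fold change of -0.35 ± 0.19 (SE; unadjusted p = 0.0903, adjusted p = 0.502). The co-receptor gene Lrp6 stood at 17.8 and 23.4 FPKM in cKO and at 17.7, 21.3 and 14.8 FPKM in control, and Ryk, an alternative Wnt receptor, at 33.4 and 39.3 FPKM in cKO and at 34.4, 35.7 and 29.9 FPKM in control. The secretion genes overlapped too: Wls, which carries Wnts to the cell surface, had 7.20 and 7.44 FPKM in cKO and 7.51, 7.08 and 6.68 FPKM in control. Porcn, which attaches the lipid, had 14.9 and 9.998 FPKM in cKO and 12.4, 9.64 and 11.7 FPKM in control. The kinase gene Csnk1a1, the co-repressors Tle1 and Tle4, the antagonist Draxin, the target Id2 and the polarity gene Daam1 also overlapped between groups, with log2 fold changes between -0.20 and 0.20. Igfbp4, Tnfrsf19 and Vangl2 were higher in both cKO libraries than in any control, with log2 fold changes of 0.25, 0.35 and 0.26 and adjusted p of 0.570, 0.408 and 0.585 in limma.

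**Figure D4:**
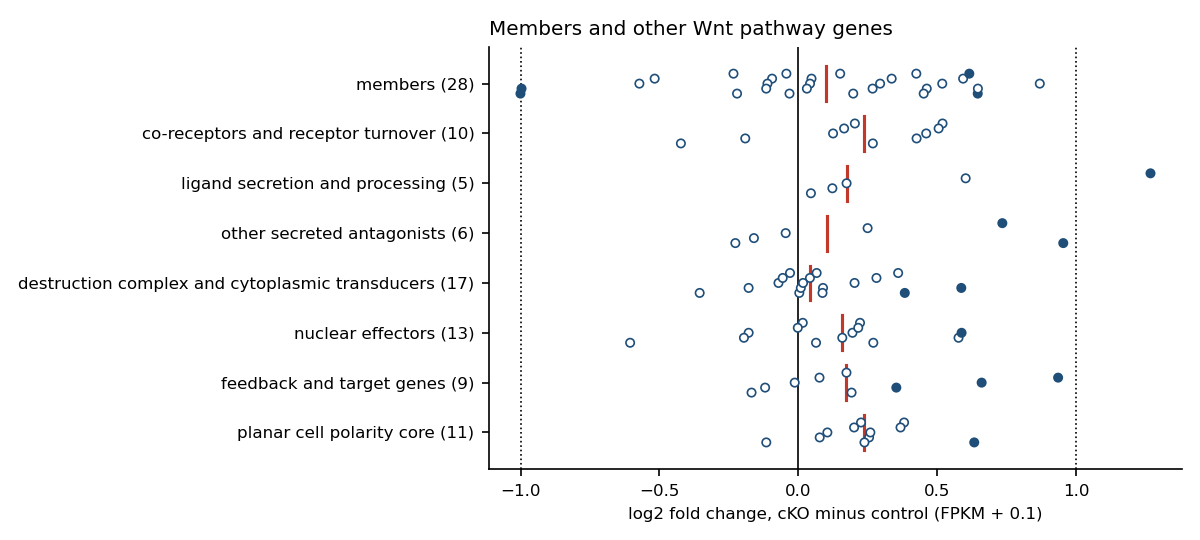
Log2 fold change in FPKM + 0.1, cKO minus control, on the horizontal axis for the 28 tested members and the 71 tested genes of 7 classes of other Wnt pathway genes, 1 point a gene (filled where the unadjusted limma p is under 0.05), with red lines for medians and dotted lines for 2-fold; vertical scatter within a class has no meaning. Notum is the 1 point beyond the upper line, and Fzd10 and Dkk3 sit on the lower one.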

How the data were processed

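Total RNA of E16 cortices (TriZol, ribosomal RNA depleted, directional libraries) had been sequenced by the authors as 2 cKO and 3 control biological replicates. They mapped reads with TopHat2 to mm10 and removed duplicates and reads with several places in the genome, and the authors deposited FPKM values from Cuffdiff, with version and annotation not given in the sources used here. FPKM carry no counts, and depth is a rough estimate (61.0% to 77.8% of low values lay within 0.25 of whole fragments, where chance gives 50%). Values of small RNAs took 54.8% to 88.5% of summed FPKM, and 1243 small RNA names were left out of the fit.

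Genes averaging 0.1 FPKM or more (14691) were tested as log2(FPKM + 0.1) with limma 3.58.1 in R 4.3.3 (trended eBayes, 9.319 degrees of freedom), cKO minus control, with Benjamini-Hochberg adjustment over all of them. The thresholds were an unadjusted p under 0.05 and a 2-fold difference. The fit was tested on simulated data. Members, pathway genes and markers were chosen with earlier results of these data known. The text names members past the thresholds, the 3 most abundant of each family (all of families of 4 or fewer), untested members, and of the other pathway genes those past the thresholds and the 2 most abundant of each class. Sequences came from RefSeq, with Python 3.11.15. Alternatives were other pseudocounts, filters, scalings, a covariate for Y-linked transcripts, no trend, and each library left out.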

Additional observations from a re-analysis of the deposited data

How the results depend on the processing

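The count of members past the thresholds moved with the setting, since Fzd10 and Dkk3 lie on the 2-fold line. It was 0 with a pseudocount of 1, with only genes averaging 1 FPKM or more, with upper quartile scaling and with the covariate for Y-linked transcripts. It was 2 with a pseudocount of 0.01 (Dkk3 and Fzd10), with quantile normalization (Dkk3 and Fzd10) and with no filter on the mean (Fzd10 and Wnt6), and 0 to 2 with 1 library left out, where Lgr6 and Wnt9a passed, higher, without cKO replicate 2. The count at an adjusted p under 0.05 was 1 (Dkk3) with quantile normalization and 0 to 1 with 1 library left out. Of the other pathway genes, 0 passed the thresholds with a pseudocount of 1, with only genes averaging 1 FPKM or more, or with quantile normalization, 2 with upper quartile scaling (Frzb and Notum), 1 with a pseudocount of 0.01 or the Y-linked covariate, where it was Frzb and not Notum, 3 with no filter (Dkkl1, Notum and T), and 0 to 2 with 1 library left out (Ccnd1 and Frzb without control replicate 3). Uhrf1 passed the thresholds in every setting tried.

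Several log2 fold changes near 0 changed sign. Upper quartile scaling gave log2 fold changes of 0.011 for Fzd1, 0.022 for Wnt7a and 0.0084 for Draxin, quantile normalization gave -0.22 for Rspo1 and 0.013 for Draxin, and the Y-linked covariate gave -0.022 for Rspo1 and -0.0035 for Sfrp1. With 1 library left out, values crossed 0 for 11 of the 28 tested members and 30 of the 71 other pathway genes. Among those named by the rule on level or threshold these were Fzd1 (-0.23 to 0.10), Fzd3 (-0.16 to 0.47), Lgr4 (-0.42 to 0.20), Rspo1 (-0.47 to 0.55), Rspo3 (-0.36 to 0.13), Sfrp1 (-0.12 to 0.12), Sfrp4 (-0.059 to 0.87), Wnt7a (-0.30 to 0.24), Porcn (-0.16 to 0.41), Draxin (-0.35 to 0.16), Csnk1a1 (-0.38 to 0.023), Tle1 (-0.38 to 0.026) and Id2 (-0.032 to 0.24). The other members were Fzd2 (-0.054 to 0.22), Fzd6 (-0.16 to 0.0053) and Wnt9a (-0.18 to 1.48), the last of which passed the thresholds without cKO replicate 2. The cause was not tested. No paired analysis was possible because the labels give no replicate numbers that pair libraries. FPKM without counts and 2 cKO libraries limit what can be called, most of all for members under 1 FPKM. A p that misses a threshold leaves differences inside the intervals given.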
